A study of Mus musculus with 12 samples.

Results

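The genes described are 10 secreted proteins that tune WNT signalling outside the cell, 7 antagonists (Sfrp1, Sfrp2, Sfrp5, Frzb, Dkk1, Dkk3 and Wif1) and 3 R-spondins (Rspo1, Rspo2 and Rspo3). They were found by symbol among the 55681 non-control probes of a mouse expression array, where each had 1 probe, so that 10 probes stand for 10 of the 35831 gene names on all 12 arrays. The study profiled neurons made from mouse embryonic stem cells and tissues of the mouse embryo. The cultures came from a male 129/Ola line and were collected on day 16 of differentiation, and every one of them first received the WNT inhibitor 53AH (2.5 µM) and the BMP inhibitor LDN193189 (0.25 µM). CHIR_8-16 cultures had both inhibitors on days 0 to 8 and then CHIR, which the labels call a WNT agonist, at 3 µM on days 8 to 16, although counting the written culture steps places the switch on day 7. CHIR_11-16 cultures had the inhibitors on days 0 to 11 and the agonist on days 11 to 16, at a dose that is not given in the sources used here. WiBi_0-16 cultures had the inhibitors throughout, and WiBi_0-11 cultures had them on days 0 to 11 and neither drug afterwards. The labels name the CHIR_8-16 protocol hippocampal and the WiBi_0-11 protocol isocortical. Each of these 4 groups had 2 arrays. Hippocampus, ventral telencephalon, midbrain and cortex of Sv129s6 embryos of both sexes at E15 had 1 array each. The labels state that RNA was pooled over 3 sets of experiments, and do not say whether the arrays of a group came from separate pools, so the p-values below measure the spread between these arrays, which may be technical.

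WNT proteins bind a Frizzled receptor together with the co-receptor LRP5 or LRP6, which keeps beta-catenin from being degraded and lets it act with LEF/TCF factors on target genes such as Axin2. Secreted frizzled-related proteins (Sfrp1, Sfrp2, Sfrp5 and Frzb, also called Sfrp3) and Wif1 bind the WNT ligand itself, while Dkk1 binds LRP5 and LRP6 and takes them out of action together with Kremen proteins. Dkk3 is a divergent member of the Dkk family whose action on WNT signalling differs between settings. R-spondins work the other way: they bind LGR4 to LGR6 and keep the ubiquitin ligases RNF43 and ZNRF3 from removing Frizzled receptors. In the embryonic forebrain the cortical hem, at the medial edge of the cortex beside the hippocampus, is a source of WNT ligands, and Sfrp2 is known as a marker of the opposite edge of the pallium, the antihem.

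The probes were 60 bases long and were placed on mm9 by the array files. Their first 30 bases are given for 4 genes that stand for the kinds of protein described (a frizzled-related protein low in 1 culture group and one high in it, the LRP5/6 antagonist and an R-spondin), since the values below are the hybridisation to such strands. The probe of Sfrp1 lay at chr8:24559438-24559497 (plus strand), that of Frzb at chr2:80252582-80252641 (minus strand), that of Dkk1 at chr19:30621424-30621483 (minus strand) and that of Rspo1 at chr4:124686270-124686329 (plus strand).
Sfrp1: ttaaaatagtcattccggagagtcagggaa
Frzb: gtgcaccagggtgttatttaacagaggtat
Dkk1: tactgtgttgtaaatcctcagtgtggcact
Rspo1: ccgtggtacacgtcacggatgacctgactt

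Promoter sequences, 250 bases before to 50 bases after the start of the gene, were taken from RefSeq on GRCm38.p6, where 6 of the 10 genes matched an entry (Sfrp2, Sfrp5, Frzb, Dkk1, Wif1 and Rspo1). They were searched on both strands for TCAAAG, the core letters of the LEF/TCF motif, and for the longer ATCAAAG, which contains it. TCAAAG was in 2 of these 6 windows and in 16.0% of the 32851 windows of the same length. The longer ATCAAAG was in 0 of the 6 and in 3.73% of all windows. The matches were in Frzb, whose first base lay 95 bases upstream of the start on the gene's strand, and in Dkk1, at 174 bases upstream on the gene's strand and 117 bases upstream on the other strand, where the letters read CTTTGA. A match is a description of letters, not a binding site. The 2 windows that held it are printed with the matches in capitals, and that of Rspo1, the R-spondin with an entry, is printed beside them. Frzb is at chr2:80447347-80447646 (minus strand), Dkk1 at chr19:30549447-30549746 (minus strand) and Rspo1 at chr4:124986180-124986479 (plus strand).
Frzb: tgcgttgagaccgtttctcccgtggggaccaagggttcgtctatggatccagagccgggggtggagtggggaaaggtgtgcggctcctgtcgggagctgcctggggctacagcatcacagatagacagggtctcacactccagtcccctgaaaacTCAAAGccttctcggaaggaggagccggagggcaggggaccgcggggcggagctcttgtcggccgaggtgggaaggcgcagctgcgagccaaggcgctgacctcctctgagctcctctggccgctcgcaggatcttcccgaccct
Dkk1: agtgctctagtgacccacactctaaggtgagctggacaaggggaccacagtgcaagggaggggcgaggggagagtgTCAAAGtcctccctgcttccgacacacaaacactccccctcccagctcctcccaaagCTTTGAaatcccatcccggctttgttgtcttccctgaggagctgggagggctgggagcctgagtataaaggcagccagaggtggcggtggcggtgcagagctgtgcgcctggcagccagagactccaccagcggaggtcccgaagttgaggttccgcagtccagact
Rspo1: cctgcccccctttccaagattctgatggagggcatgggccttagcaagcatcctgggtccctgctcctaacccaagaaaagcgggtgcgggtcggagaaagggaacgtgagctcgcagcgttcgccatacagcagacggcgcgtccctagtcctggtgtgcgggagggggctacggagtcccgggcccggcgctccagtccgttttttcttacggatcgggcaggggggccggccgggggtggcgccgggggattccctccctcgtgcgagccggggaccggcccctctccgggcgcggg

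A level below is the log2 of the processed signal over the 75th percentile of the same array, so that 0 is the 75th percentile and a difference of 1 is 2-fold. It compares arrays for 1 probe and never 1 gene with another. The 75th percentile ran from 629 to 1130 intensity units over the 12 arrays and 59.1% to 71.2% of non-control spots were well above background. Slide 2 carried replicate 1 of all 4 culture groups and slide 3 carried replicate 2, so that slide could be fitted as a block, whereas the embryo arrays were on slide 1 and a culture cannot be told apart from its slide in a comparison with tissue. Markers of neurons were above background on all 12 arrays (6 of 6 markers), with a summed level of 244 to 302 times the 75th percentile in cultures and 281 to 362 in tissues. Telencephalic markers (5 of 5 above background) summed to 75.8 to 101 in cultures, 129 to 248 in the 3 telencephalic tissues and 14.9 in midbrain. Midbrain markers summed to 22.4 in midbrain, against 1.45 to 1.97 in the other tissues. All 10 genes passed the filter on dim probes, and 8 of them were well above background on all 8 culture arrays. Frzb was so on 5 of 8 culture arrays and Dkk1 on 3 of 8, and where both arrays of a group were below, a fold is given only as a lower bound, and only if the other group was above background on all of its arrays.

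**Figure D1:**
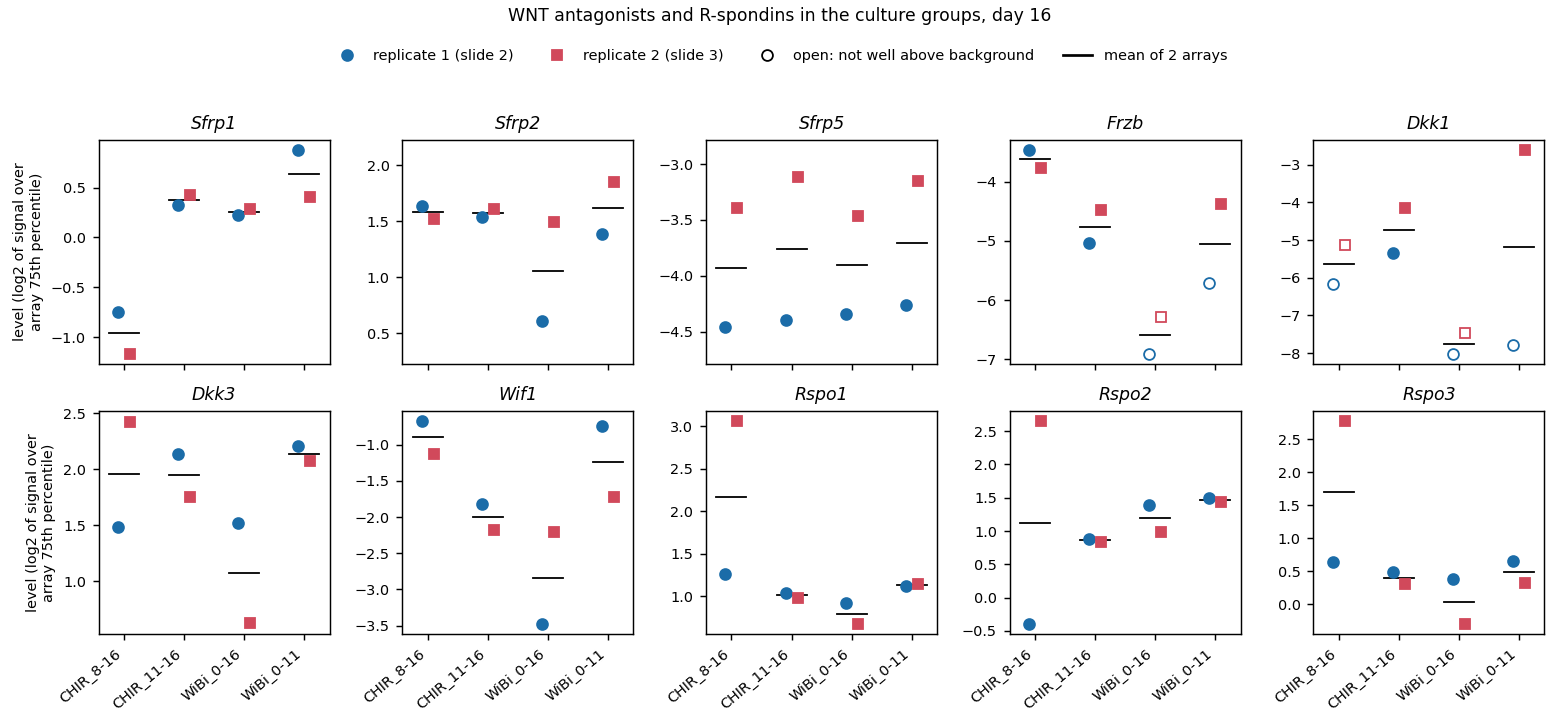
Levels of the 10 genes on the 8 culture arrays, 1 panel per gene, with the log2 of the signal over the array's 75th percentile on the vertical axis (the range differs between panels) and the culture groups on the horizontal axis. Circles are replicate 1 (slide 2), squares replicate 2 (slide 3), open symbols are arrays not well above background and bars are means of 2 arrays. Sfrp1 is lowest on both CHIR_8-16 arrays (-0.74 and -1.16), and all 3 R-spondins are highest on CHIR_8-16 replicate 2 (3.06, 2.65 and 2.78).

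No gene of the 10 passed an adjusted p of 0.05 in any of the 5 comparisons between culture groups in limma, with or without slide as a block, over 25536 genes tested. The differences below are therefore given as values, and genes named as higher or lower outside the tests are described by their arrays. In CHIR_8-16 against WiBi_0-11 cultures, limma called 0 of 10, while 0.0117% of all genes were called without and 0.309% with the block. At an unadjusted p under 0.05, Sfrp1 and Frzb passed in both fits, as did 2457 of all 25536 genes without and 5634 with the block. In CHIR_11-16 against WiBi_0-11 cultures 0 of 10 were called, against 0% and 0.0117% of all genes, and 0 had an unadjusted p under 0.05 in either fit. Of all 25536 genes, 1200 had one without and 3184 with the block. In WiBi_0-16 against WiBi_0-11 cultures 0 of 10 were called, against 0% and 0.0117%, and Frzb and Wif1 had an unadjusted p under 0.05 in both fits and Dkk3 without the block only. The same held for 669 of all 25536 genes without and 2764 with the block. In CHIR_8-16 against CHIR_11-16 cultures 0 of 10 were called, against 0% and 0.00783%, and Sfrp1 had an unadjusted p under 0.05 in both fits and Frzb with the block only. Here 975 of all 25536 genes had one without and 2970 with the block. With the 4 agonist cultures set against the 4 inhibitor cultures 0 of 10 were called, against 0.00783% and 3.23%, and Frzb had an unadjusted p under 0.05 in both fits. So did 3910 of all 25536 genes without and 5744 with the block. The first 3 of these comparisons share the WiBi_0-11 arrays, and each of the 5 shares arrays with another.

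Sfrp1, an antagonist made by radial glia of the developing cortex, was the gene that stood apart most clearly in CHIR_8-16 cultures. Its level was -0.74 and -1.16 in CHIR_8-16, 0.32 and 0.42 in CHIR_11-16, 0.23 and 0.29 in WiBi_0-16 and 0.87 and 0.40 in WiBi_0-11 cultures. Both CHIR_8-16 arrays lay below the other 6. The mean was -0.95 ± 0.30 in CHIR_8-16 and 0.64 ± 0.33 in WiBi_0-11 cultures (SD, n = 2 each), a difference of -1.59 on the log2 scale (SE 0.24, 3.01-fold lower). In limma its adjusted p was 0.204 without and 0.0576 with slide as a block, the lowest of the 10 genes, and the difference was -1.62 within slide 2 and -1.57 within slide 3. Against CHIR_11-16 cultures the difference was -1.33 (SE 0.24, 2.51-fold lower, limma adjusted p 0.868 without and 0.148 with the block). In the order WiBi_0-11, CHIR_11-16, WiBi_0-16 and CHIR_8-16, the gaps between neighbouring means were 0.27, 0.12 and 1.21, beside a pooled SD of 0.23 within groups. Only the last gap separated groups by more than their spread and without overlap, since the arrays of the first pair overlapped and the second gap was below the pooled SD. In bulk RNA fewer cells that make a transcript and less of it per cell cannot be told apart, here and in all results below. The summed level of 7 radial glia and astrocyte markers, all above background in cultures, was 90.8 and 239 in CHIR_8-16, 151 and 193 in CHIR_11-16, 139 and 200 in WiBi_0-16 and 182 and 261 in WiBi_0-11 cultures. Most of that sum was Fabp7, the sum was higher on slide 3 in all 4 groups, and its part in the Sfrp1 values was not tested.

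Sfrp2 and Sfrp5, which as frizzled-related proteins also bind WNT ligands, differed little between culture groups. Sfrp2 lay between 0.60 and 1.85 on the 8 arrays, with means of 1.58 ± 0.08 in CHIR_8-16, 1.57 ± 0.05 in CHIR_11-16, 1.05 ± 0.63 in WiBi_0-16 and 1.62 ± 0.33 in WiBi_0-11 cultures (SD, n = 2 each). The lowest array was WiBi_0-16 replicate 1, at 0.60, while replicate 2 of the same group had 1.50. Sfrp5 had -4.46 and -3.40 in CHIR_8-16, -4.40 and -3.12 in CHIR_11-16, -4.34 and -3.46 in WiBi_0-16 and -4.26 and -3.15 in WiBi_0-11 cultures. Its 4 group means differed by at most 0.22, and what separated its arrays was the slide. On slide 3 it was higher in 4 of 4 groups, by 1.08 on average over slide 2 (range 0.88 to 1.28, limma adjusted p 0.00383), the only one of the 10 genes whose slide term passed. Of all 25536 genes, 6205 were higher and 2569 lower on slide 3. With the block its differences between single groups had a standard error of 0.14, against 0.66 without it, and the adjusted p was still between 0.41 and 0.908 in the 5 comparisons.

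Frzb was brightest in CHIR_8-16 cultures and dimmest where the inhibitors were never withdrawn. It had -3.47 and -3.77 in CHIR_8-16, -5.04 and -4.49 in CHIR_11-16, -6.91 and -6.29 in WiBi_0-16 and -5.71 and -4.38 in WiBi_0-11 cultures. All 4 agonist arrays were well above background, against 0 of 2 in WiBi_0-16 and 1 of 2 in WiBi_0-11 cultures. Frzb passed the filter on dim probes only through these agonist groups, so the counts are no separate evidence of a difference. Its mean was -4.19 ± 0.71 in the agonist and -5.82 ± 1.08 in the inhibitor cultures (SD, n = 4 each), a difference of 1.63 (SE 0.56) with a limma adjusted p of 0.212 without and 0.136 with the block. The groups overlapped through WiBi_0-11 replicate 2, which was above both CHIR_11-16 arrays. CHIR_8-16 exceeded WiBi_0-11 cultures by 1.43 (SE 0.49, 2.69-fold, limma adjusted p 0.456 and 0.133), by 2.25 within slide 2 and 0.61 within slide 3. It exceeded CHIR_11-16 cultures by 1.14 (SE 0.49, 2.21-fold, limma adjusted p 1 and 0.383). The measured difference between WiBi_0-16 and WiBi_0-11 cultures was -1.55 (SE 0.49, limma adjusted p 1 and 0.403), with 3 of the 4 arrays not well above background, so that no fold is given. These sizes depend on how dim signals are treated: with normexp background correction and quantile normalization the differences were 0.41 for agonist against inhibitor cultures, 0.45 for CHIR_8-16 against WiBi_0-11, 0.45 for CHIR_8-16 against CHIR_11-16 and -0.36 for WiBi_0-16 against WiBi_0-11 cultures. Of the gaps between neighbouring means, that between CHIR_11-16 and WiBi_0-11 cultures (0.28) was below the pooled SD of 0.57, and the other two (1.14 and 1.55) were above it.

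Wif1, which binds WNT ligands through its WIF domain, had -0.67 and -1.13 in CHIR_8-16, -1.82 and -2.17 in CHIR_11-16, -3.48 and -2.20 in WiBi_0-16 and -0.74 and -1.73 in WiBi_0-11 cultures. CHIR_8-16 and WiBi_0-11 arrays overlapped at the top, CHIR_11-16 arrays lay below both groups, and WiBi_0-16 arrays lay below all others. The difference between WiBi_0-16 and WiBi_0-11 cultures was -1.60 on the log2 scale (SE 0.52, 3.04-fold lower, limma adjusted p 1 without and 0.438 with the block), and it was -2.74 within slide 2 and -0.47 within slide 3. CHIR_8-16 were 1.10 above CHIR_11-16 cultures (SE 0.52, 2.14-fold, limma adjusted p 1 and 0.479), by 1.15 within slide 2 and 1.05 within slide 3.

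Dkk1, the LRP5/6 antagonist, was well above background on 3 of 8 culture arrays. It passed the filter on dim probes only through CHIR_11-16 cultures. It had -6.16 and -5.12 in CHIR_8-16, -5.34 and -4.14 in CHIR_11-16, -8.01 and -7.48 in WiBi_0-16 and -7.77 and -2.61 in WiBi_0-11 cultures. Both CHIR_11-16 arrays and WiBi_0-11 replicate 2 were above background, and the last was the highest of all 8. The 2 arrays of WiBi_0-11 thus lay 5.16 apart, so that the mean of -5.19 ± 3.65 (SD, n = 2) describes neither. Against that mean the difference was -0.45 in CHIR_8-16, 0.45 in CHIR_11-16 and -2.55 in WiBi_0-16 cultures, and no fold is given. Each had a standard error of 1.60, and the limma adjusted p-values were 0.993, 1 and 1 without and 0.844, 0.897 and 0.489 with the block. By their means, CHIR_8-16 were at least 1.55-fold lower than CHIR_11-16 cultures (measured difference -0.90, limma adjusted p 1 and 0.754). The arrays overlapped, with CHIR_8-16 replicate 2 (-5.12) above CHIR_11-16 replicate 1 (-5.34). Among the alternatives the difference lay between -1.53 and -0.27, so this bound holds only for the means in the main scaling. Without WiBi_0-11 replicate 2 the differences were 2.13, 3.03 and 0.03 in the same order, and without replicate 1 they were -3.03, -2.13 and -5.13, so that the direction against WiBi_0-11 cultures rests on which of its arrays is used.

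The array with the high Dkk1 level also had high levels of genes of undifferentiated cells. Pou5f1 (Oct4) and Zfp42 (Rex1), transcription factors of embryonic stem cells, were at -2.52 and -0.96 on WiBi_0-11 replicate 2, against -7.33 and -7.87 on replicate 1. They were also above background on CHIR_11-16 replicate 2 (-2.65 and -1.21) and CHIR_8-16 replicate 2 (-3.74 and -2.26), where Dkk1 was at -4.14 and -5.12, against -5.34 and -6.16 on replicate 1 of the same groups. Both CHIR_8-16 values of Dkk1 were not well above background. In WiBi_0-16 cultures Pou5f1 was below background on both arrays and Zfp42 on replicate 2. Over the 3 markers of the list the summed level was 0.828 and 0.840 in CHIR_8-16, 0.451 and 1.28 in CHIR_11-16, 0.788 and 0.741 in WiBi_0-16 and 0.535 and 1.26 in WiBi_0-11 cultures, and Nanog, the third, was above background on all arrays, embryonic tissue included. The part of such cells in the Dkk1 values was not tested. The 3 genes most like Dkk1 over the 8 culture arrays after slide means were taken off were Cdh1 (Pearson r 0.991), Rbpms2 (0.974) and Slc39a4 (0.970), and without WiBi_0-11 replicate 2 the values were 0.989, 0.959 and 0.966 over 7 arrays.

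**Figure D2:**
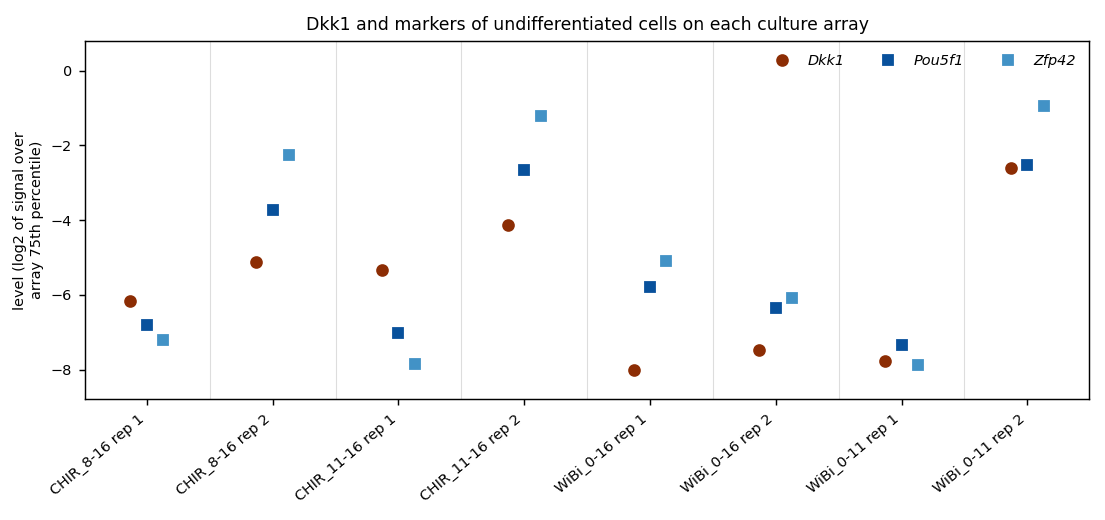
Levels of Dkk1 (circles) and of the stem cell genes Pou5f1 and Zfp42 (squares) on each culture array, as log2 of the signal over the array's 75th percentile. Dkk1 is highest on WiBi_0-11 replicate 2 (-2.61), where Zfp42 is at -0.96, and Dkk1 is not well above background on 5 of the 8 arrays.

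Dkk3 was expressed in all cultures, at 1.48 and 2.42 in CHIR_8-16, 2.14 and 1.75 in CHIR_11-16, 1.52 and 0.62 in WiBi_0-16 and 2.20 and 2.07 in WiBi_0-11 cultures. The WiBi_0-16 arrays lay below those of WiBi_0-11, with a difference of -1.07 (SE 0.43, 2.10-fold lower, limma adjusted p 1 without and 0.462 with the block). The means of CHIR_8-16, CHIR_11-16 and WiBi_0-11 cultures differed by at most 0.19 and their arrays overlapped.

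The R-spondins were high on 1 array of 1 group. Rspo1 had 1.26 and 3.06 in CHIR_8-16, 1.04 and 0.99 in CHIR_11-16, 0.92 and 0.67 in WiBi_0-16 and 1.12 and 1.15 in WiBi_0-11 cultures. Rspo3 had 0.63 and 2.78 in CHIR_8-16, 0.49 and 0.30 in CHIR_11-16, 0.37 and -0.31 in WiBi_0-16 and 0.65 and 0.32 in WiBi_0-11 cultures. The other 7 culture arrays lay between 0.67 and 1.26 for Rspo1 and between -0.31 and 0.65 for Rspo3, all below CHIR_8-16 replicate 2. Rspo2 had -0.40 and 2.65 in CHIR_8-16, 0.87 and 0.84 in CHIR_11-16, 1.38 and 0.99 in WiBi_0-16 and 1.50 and 1.43 in WiBi_0-11 cultures, so that CHIR_8-16 held both the lowest and the highest array. The spread between the 2 CHIR_8-16 arrays was 1.80 for Rspo1, 3.06 for Rspo2 and 2.15 for Rspo3, more than the span of the 4 group means of the same gene (1.37, 0.61 and 1.67).

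The mean of Rspo1 was 2.16 ± 1.27 in CHIR_8-16 and 1.14 ± 0.02 in WiBi_0-11 cultures (SD, n = 2 each), a difference of 1.03 (SE 0.55, limma adjusted p 0.638 without and 0.305 with the block), which was 0.14 within slide 2 and 1.91 within slide 3. The difference of Rspo3 was 1.23 (SE 0.69, limma adjusted p 0.654 and 0.351), -0.01 within slide 2 and 2.47 within slide 3. That of Rspo2 was -0.34 (SE 0.92, limma adjusted p 0.986 and 0.844), -1.90 within slide 2 and 1.22 within slide 3. Without CHIR_8-16 replicate 1, and with the block, Rspo1 and Rspo3 were called (1.97 and 2.50, limma adjusted p 0.0493 each, of 110 genes called). Without replicate 2 their differences were 0.08 and -0.05 in the same fit. In CHIR_8-16 cultures the direction for Rspo2 and Rspo3 thus rests on which of the 2 arrays is used. For Rspo1 only the size does.

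On the same array the summed level of cortical hem and roof plate markers was the highest of the 8. The summed level of the 7 of 8 listed hem markers that had a value on every array was 2.64 and 4.84 in CHIR_8-16, 2.94 and 3.1 in CHIR_11-16, 2.96 and 3.32 in WiBi_0-16 and 2.85 and 3.14 in WiBi_0-11 cultures, and 5 or 6 of the 7 were above background. Lmx1a, a transcription factor of the roof plate and hem, was at 0.66 on CHIR_8-16 replicate 2 and between -1.47 and -0.58 on the other 7 culture arrays, and Wnt5a was at 1.24 and between 0.58 and 1.10. Most of the sum was Wnt5a and Lmx1a, which were also at 0.49 and 0.46 in E15 midbrain. Not every marker followed: Gdf7 was at -2.55 on CHIR_8-16 replicate 2, below the -2.20 of replicate 1, and Msx1, at -1.73, was close to the WiBi_0-16 arrays (-1.76 and -1.77). Wnt3a, which defines the hem, was not above background on any culture array. The radial glia sum was higher and the ventral telencephalic sum lower on replicate 2 than on replicate 1 of CHIR_8-16, at 239 and 90.8 for the first list and 11.5 and 26.1 for the second. Most of the first was Fabp7, and that sum was higher on slide 3 in all 4 groups. Pax6 went the other way (-1.29 on replicate 2, 0.04 on replicate 1). Most of the second was Lhx6, which was lower on slide 3 in all 4 groups. Dlx1, Dlx2, Dlx5 and Gsx2 were also lower on replicate 2. The part of these markers in the R-spondin values was not tested. Rspo1 and Rspo3 were near each other in pattern (Pearson r 0.995 over the 8 culture arrays after slide means were taken off, and 0.913 over 7 without CHIR_8-16 replicate 2), and Myorg was the other gene nearest to both (0.997 with Rspo1 and 0.995 with Rspo3).

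**Figure D3:**
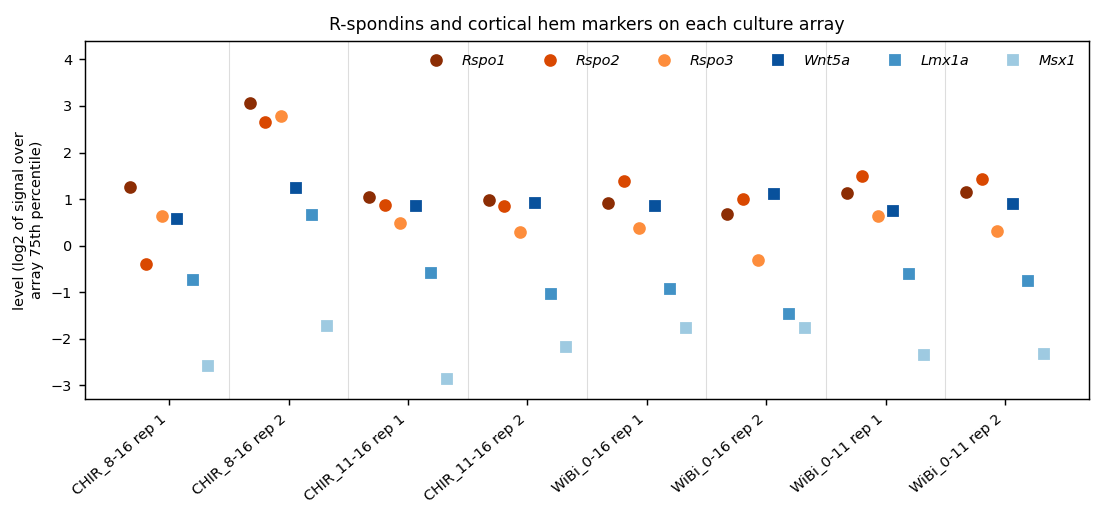
Levels of Rspo1, Rspo2 and Rspo3 (circles) and of 3 of the hem markers, Wnt5a, Lmx1a and Msx1 (squares), on each culture array, as log2 of the signal over the array's 75th percentile. The 3 R-spondins are at 3.06, 2.65 and 2.78 on CHIR_8-16 replicate 2, where Lmx1a is at 0.66, and Rspo2 is lowest on replicate 1 of the same group (-0.40).

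In WiBi_0-16 against WiBi_0-11 cultures, which differ in 5 further days of both inhibitors, each of the 10 genes had a lower mean in WiBi_0-16, with a median difference of -0.51 on the log2 scale, against 0.00 over all genes, and all 10 were lower in each of the 4 other scalings tried. Leaving out 1 array turned the sign for 5 of the 10: Sfrp5 reached 0.36 and Dkk1 0.03 without WiBi_0-11 replicate 2, and Rspo1 reached 0.08, Rspo2 0.41 and Rspo3 0.16 without WiBi_0-16 replicate 2 with the block. Both WiBi_0-16 arrays lay below both WiBi_0-11 arrays for 6 of 10 genes (Sfrp1, Frzb, Dkk3, Wif1, Rspo1 and Rspo2), where 16.4% of all genes did so, and above for 0 of 10, where 11.9% did. The median was -1.07 over the 7 antagonists and -0.34 over the 3 R-spondins. Among the antagonists, Frzb and Dkk1 were not well above background on either WiBi_0-16 array or on WiBi_0-11 replicate 1. The antagonist median therefore rests in part on dim signals and is not set against that of the R-spondins. With dim values raised to the array floor, the median over the 10 genes was -0.47. No gene of the 10 was called, so these are descriptions of 4 arrays. Of 8 markers of mesenchyme and meninges, 8 had a lower mean in WiBi_0-16 cultures (median -1.16), with a summed level of 5.86 and 5.87 in WiBi_0-16 and 13.6 and 14.0 in WiBi_0-11 cultures. In CHIR_11-16 against WiBi_0-11 cultures 7 of these 8 were lower too (median -1.35, summed level 7.66 and 4.04 in CHIR_11-16). The median difference of the 10 genes was only -0.10 there. Of 7 radial glia and astrocyte markers 6 were lower in WiBi_0-16 than in WiBi_0-11 cultures (median -0.36). The part of either in the lower levels of the 10 genes was not tested.

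In CHIR_8-16 against WiBi_0-11 cultures the arrays did not overlap for Frzb and Rspo1 (2 of 10 higher, 17.7% of all genes) and for Sfrp1 (1 of 10 lower, 17.9% of all genes), shares near those of all genes. The median difference was -0.11, against 0.05 over all genes. Markers of mesenchyme were lower here too, at 5.66 and 2.30 in CHIR_8-16 against 13.6 and 14.0 in WiBi_0-11 cultures, as were 5 of 6 ventral telencephalic markers (median -2.84). In CHIR_11-16 against WiBi_0-11 cultures, 0 of 10 were higher without overlap (18.0% of all genes) and 3 of 10 lower (16.9%), namely Wif1, Rspo1 and Rspo2, by -0.76, -0.12 and -0.61. For the start of the agonist, CHIR_8-16 against CHIR_11-16 cultures had 4 of 10 higher (Frzb, Wif1, Rspo1 and Rspo3, 11.3% of all genes) and 1 of 10 lower (Sfrp1, 14.8%). With the 4 agonist arrays set against the 4 inhibitor arrays, 0 of 10 were without overlap in either direction, where 6.72% of all genes were higher and 5.56% lower.

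**Figure D4:**
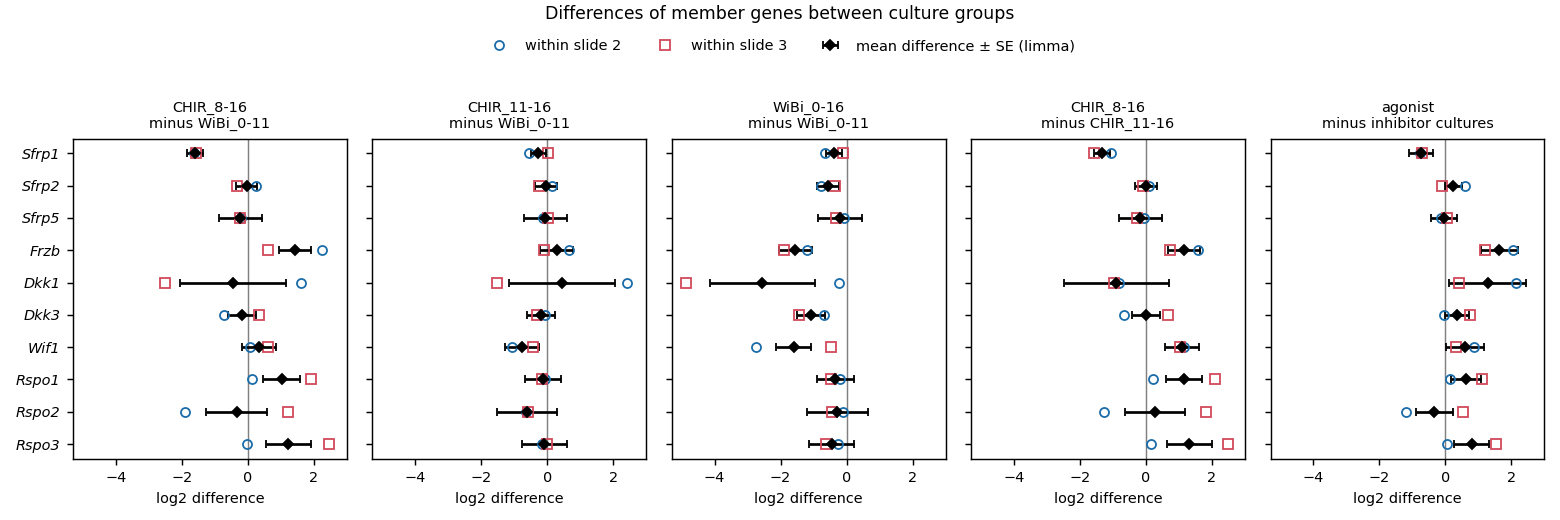
Differences of the 10 genes in the 5 comparisons of culture groups, on the log2 scale, with the group named first minus the group named after it. Diamonds are mean differences with the standard error of the limma fit, circles the difference within slide 2 and squares that within slide 3. Sfrp1 is as low within slide 2 (-1.62) as within slide 3 (-1.57) in CHIR_8-16 against WiBi_0-11 cultures, while the R-spondins differ there between slides.

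Other genes of the pathway were measured on the same arrays, and their link to the 10 genes was not tested. Of 20 listed targets of WNT and beta-catenin, 17 were measured. With the 4 agonist cultures set against the 4 inhibitor cultures and slide as a block, 6 of the 17 were called higher and 0 lower, where 1.88% of all genes were called higher and 3.23% in either direction. Without the block 0 were called, against 0.00783% of all genes. Sp5 was 18.4-fold higher (log2 4.20, SE 0.69, limma adjusted p 0.0396), Tnfrsf19 4.61-fold (0.0390), Lef1 4.26-fold (0.0480), Nkd1, an inhibitor of the pathway that the pathway itself turns on, 3.86-fold (0.0365), Ccnd1 2.50-fold (0.0445) and Rnf43 2.05-fold (0.0494). Axin2, the common readout of the pathway, was 1.94-fold higher (log2 0.95, SE 0.25, limma adjusted p 0.0800 with and 0.176 without the block). In CHIR_8-16 against WiBi_0-11 cultures Lef1 (7.82-fold higher, limma adjusted p 0.0244) and Nkd1 (4.12-fold higher, 0.0405) were called with the block, where 0.0783% of all genes were called higher. In the other 3 comparisons of groups 0 of the 17 were called in either fit.

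Of 12 listed receptors and ligases through which the 10 proteins act, 11 were measured, and only Rnf43, also on the list of targets, was called (1 of 11), in the agonist comparison with the block, where 1.88% of all genes were called higher. There the log2 differences were 0.39 for Lgr5 (SE 0.39), 0.09 for Lrp6 (SE 0.15), 0.35 for Kremen1 (SE 0.14) and -0.10 for Znrf3 (SE 0.47), with limma adjusted p-values of 0.621, 0.792, 0.190 and 0.932. Of 18 other secreted or extracellular modulators 12 were measured, and only Sfrp4, a further frizzled-related protein, was called (1 of 12). This was again in the agonist comparison with the block (2.19-fold higher, log2 1.13, SE 0.19, limma adjusted p 0.0405), where 1.88% of all genes were called higher. Without the block Sfrp4 was not called (limma adjusted p 0.0831). Sfrp4 was at -2.74 and -2.08 in CHIR_8-16, -2.40 and -2.44 in CHIR_11-16, -3.61 and -3.85 in WiBi_0-16 and -3.22 and -3.51 in WiBi_0-11 cultures, so that all 4 agonist arrays were above all 4 inhibitor arrays. Of all genes 6.72% showed this, and of the 10 genes 0 did, which so low a share does not set apart. The median difference in this comparison was 0.95 over the targets, 0.09 over the receptors, 0.37 over the other modulators and 0.47 over the 10 genes, against 0.00 over all genes.

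For the other genes whose group means spanned more than 1 on the log2 scale, the most alike over the 8 culture arrays after slide means were taken off were Rprml, Mfge8 and Sox1ot for Sfrp1 (Pearson r 0.992, 0.983 and 0.983), ND3, Rpl7a and Wwc1 for Frzb (0.993, 0.981 and 0.979), Fkbp9, Ormdl3 and Smox for Dkk3 (0.991, 0.985 and 0.981) and Zmat4, Mfsd13b and Gatad2a for Wif1 (0.990, 0.990 and 0.982). These are the highest of 15321 named genes compared over arrays that share groups and slides, and carry no test.

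In the embryo there was 1 array per tissue and so no test. From the lowest to the highest of the 4 tissues, the spans of the 10 genes ran from 1.65-fold (Sfrp2) to 84.5-fold (Wif1). Where the lowest tissue was dim, as for Wif1, Frzb and Dkk1 in cortex, the size of the span is uncertain.

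**Figure D5:**
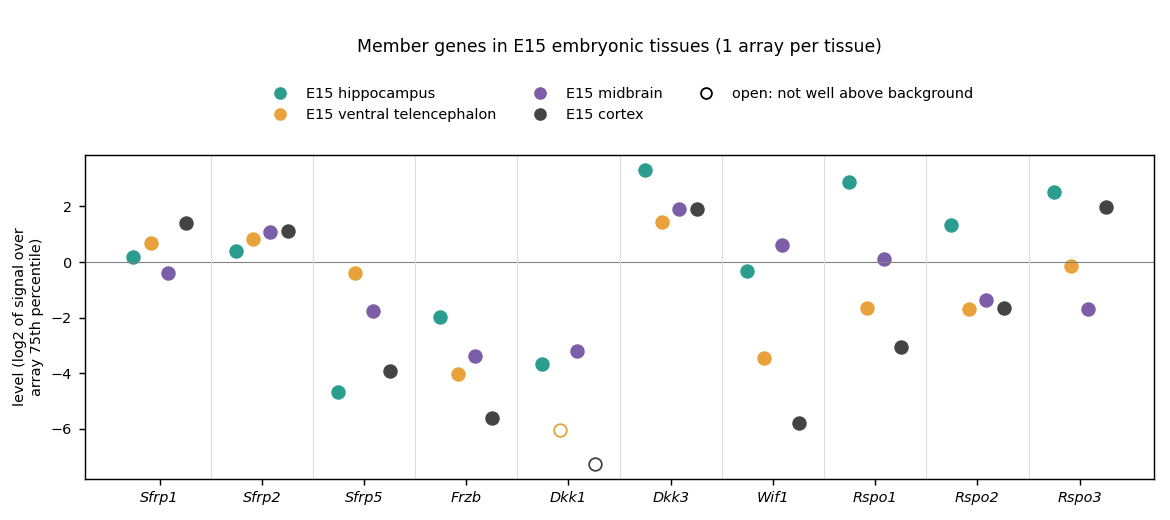
Levels of the 10 genes in hippocampus, ventral telencephalon, midbrain and cortex of E15 embryos, as log2 of the signal over the array's 75th percentile, with 1 array per tissue and open symbols for values not well above background. Rspo1 is at 2.89 in hippocampus and -3.04 in cortex, and Sfrp5 is highest in ventral telencephalon (-0.41).

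Among the frizzled-related proteins, Sfrp1 and Sfrp2 were highest in cortex and the other two elsewhere. Sfrp1 was at 0.18 in hippocampus, 0.68 in ventral telencephalon, -0.38 in midbrain and 1.41 in cortex, so that hippocampus was 2.36-fold and midbrain 3.46-fold lower than cortex. Sfrp2 was at 0.39, 0.82, 1.09 and 1.11 in the same order of tissues, and its tissues spanned less than 2-fold. Sfrp5 was at -4.68 in hippocampus, -0.41 in ventral telencephalon, -1.75 in midbrain and -3.93 in cortex. It was 11.5-fold higher in ventral telencephalon and 4.52-fold higher in midbrain than in cortex, and the cultures, at -4.46 to -3.12, had levels near those of hippocampus and cortex. Frzb was at -1.99 in hippocampus, -4.02 in ventral telencephalon, -3.38 in midbrain and -5.60 in cortex, and thus 12.2-fold higher in hippocampus than in cortex. Its cortex value was also near the lowest signal well above background on that array (-5.97). In the deposited table Frzb was at 7.71 in hippocampus and 4.61 in cortex, a smaller gap.

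Wif1 and Dkk1 were highest in midbrain, with hippocampus next. Wif1 was at -0.32 in hippocampus, -3.44 in ventral telencephalon, 0.60 in midbrain and -5.80 in cortex. It was 44.6-fold higher in hippocampus and 84.5-fold higher in midbrain than in cortex. The cortex value was close to the lowest signal well above background on that array (-5.97), so these sizes depend on the treatment of dim signals. In the deposited table Wif1 was at 9.57 in hippocampus, 10.47 in midbrain and 4.85 in cortex, which are smaller gaps. Dkk1 was at -3.65 in hippocampus and -3.21 in midbrain and not well above background in ventral telencephalon (-6.04) and cortex (-7.27). Against cortex it was at least 4.99-fold higher in hippocampus and at least 6.79-fold higher in midbrain. Dkk3 was at 3.32 in hippocampus, 1.44 in ventral telencephalon, 1.89 in midbrain and 1.92 in cortex, or 2.63-fold higher in hippocampus than in cortex.

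All 3 R-spondins were highest in hippocampus. Rspo1 was at 2.89 in hippocampus, -1.66 in ventral telencephalon, 0.10 in midbrain and -3.04 in cortex, 61.0-fold higher in hippocampus than in cortex. Rspo2 was at 1.34 in hippocampus, against -1.69 in ventral telencephalon, -1.35 in midbrain and -1.64 in cortex (7.87-fold higher in hippocampus than in cortex). Rspo3 was the exception in cortex: it was at 2.52 in hippocampus and 1.99 in cortex, a 1.44-fold difference, and at -0.13 in ventral telencephalon and -1.67 in midbrain. It was 6.27-fold higher in hippocampus than in ventral telencephalon and 18.3-fold higher than in midbrain.

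Between hippocampus and cortex, 6 of 10 genes were at least 2-fold higher in hippocampus (Frzb, Dkk1, Dkk3, Wif1, Rspo1 and Rspo2), where 6.44% of 26457 genes were, and 1 of 10 was at least 2-fold lower (Sfrp1), where 5.52% were. The median difference over the 10 was 2.19 on the log2 scale, against -0.10 over all genes. Markers of other cell types were also higher on the hippocampus than on the cortex array. Choroid plexus markers (4 of 5 above background in hippocampus, 2 of 5 in cortex) summed to 33.1 in hippocampus, 3.02 in ventral telencephalon, 21.1 in midbrain and 0.150 in cortex, with Ttr, the main choroid plexus product, at 4.83 in hippocampus and -4.07 in cortex. Hem and roof plate markers (7 of 7 above background in hippocampus, 5 of 7 in cortex) summed to 6.70 in hippocampus, 1.49 in ventral telencephalon, 4.42 in midbrain and 1.23 in cortex. Mesenchyme and meningeal markers (8 of 8 above background in both) summed to 19.5 in hippocampus, 2.48 in ventral telencephalon, 47.6 in midbrain and 3.86 in cortex. The part of these cells in the tissue differences of the 10 genes was not tested.

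In the cultures Rspo1 and Rspo2 were above the cortex, midbrain and ventral telencephalon arrays on all 8 arrays. On the 8 culture arrays Rspo1 lay between 0.67 and 3.06 (2.89 in hippocampus, -3.04 in cortex, 0.10 in midbrain, -1.66 in ventral telencephalon). Rspo2 lay between -0.40 and 2.65 (1.34 in hippocampus, -1.64 in cortex, -1.35 in midbrain, -1.69 in ventral telencephalon). Rspo3 lay below both tissues on 7 of the 8 (-0.31 to 0.65, against 2.52 in hippocampus and 1.99 in cortex), the exception being CHIR_8-16 replicate 2. Wif1 lay between -3.48 and -0.67 in cultures, below the hippocampus array (-0.32) and above the cortex array (-5.80). Choroid plexus markers summed to between 0.241 and 1.0 on the culture arrays (33.1 in hippocampus, 0.150 in cortex) and hem and roof plate markers to between 2.64 and 4.84 (6.70 in hippocampus, 1.23 in cortex), and their part in these levels was not tested. These ranges set cultures beside tissues of another slide and another strain, and carry no test.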

How the data were processed

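Cy3-labelled RNA of 12 samples was measured on 1-colour Agilent arrays of design 028005, whose probe positions are on mm9 per the file headers. Spot intensity values were deposited as processed signals from Feature Extraction 10.7.3.1, per the file headers; the submitters' processing notes name version 9.1 and limma. The deposited series table holds log2 values that the authors had put on a common scale across arrays, and served as an alternative; its background treatment is not given in the sources used here. The 10 genes and all lists were chosen with earlier results of these data known.

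Values are the log2 processed signal, averaged over spots not marked as outliers, minus the 75th percentile of unmarked non-control spots of the array. Probes were kept if they had a value on every culture array and if, in 1 culture group or more, most of their unmarked spots were well above background on each array. This left 36427 of 55681 probes, from which each gene took its brightest, giving 25536 genes. Naming went by the RefSeq accession in the culture files (28026 probes) or embryo files (41), a current (1950) or older (362) symbol, or the name in the file (25302). No pair of arrays held identical values (0 pairs) and 0 spots were saturated.

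Groups were compared in R 4.3.3 with limma 3.58.1 (lmFit and eBayes), two-sided, with Benjamini-Hochberg adjustment over all genes and calls under 0.05. Comparisons of single groups used a model of the 4 culture groups. For agonist against inhibitor cultures, the groups on each side were merged before fitting. Differences between merged groups therefore count as spread in the standard errors, p-values and calls of that comparison. A second fit of each model added slide as a block. The fits were tested on simulated data. Same-numbered replicates were taken as pairs by slide, since each slide of cultures held all 4 groups and the deviations of arrays from their group means had a correlation of 0.578 to 0.667 within slides. A fold against a group below background on all its arrays is given only if the other group was above it on all of its own, as a lower bound, set against the higher of the probe's own signal and the lowest signal well above background on each array. The precision is limited by the number of arrays. Named are all 10 genes, the fixed pathway genes Axin2, Lef1, Sp5, Nkd1, Lgr5, Znrf3, Rnf43, Kremen1 and Lrp6 whatever their result, other listed pathway genes that were called, and the 3 genes most alike by Pearson r for each gene whose culture group means spanned over 1 on the log2 scale. Cell type markers were summed on the linear scale. The alternatives were other scalings and normalizations, the deposited table, other probe rules, the slide block and leaving out each array. The normexp alternative (offset 50) used the median signal, as the culture files hold no mean signal.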

Additional observations from a re-analysis of the deposited data

Results flagged for a closer look

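Within the 4 agonist cultures and within the 4 inhibitor cultures, 20 sets of 4 arrays were examined for an array that stands far from the other 3, and 3 had one. The cut-off marks about 1 in 20 sets by chance if all 4 arrays are alike. Here each set mixed 2 culture groups and 2 slides, so that rate does not apply and the 3 are descriptions only. Dkk1 was at -2.61 on WiBi_0-11 replicate 2, where the next inhibitor array was at -7.48 and all 3 others were not well above background. Rspo1 was at 3.06 and Rspo3 at 2.78 on CHIR_8-16 replicate 2, where the next agonist array was at 1.26 for Rspo1 and 0.63 for Rspo3. Both R-spondin values come from the same array, so they are not independent of each other.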

How the results depend on the processing

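The count of the 10 genes called was 0 in all 5 comparisons, with and without slide as a replicate block, and it was 0 under the other scalings, normalizations and probe rules tried, the deposited table and the raising of dim values to the array floor, an alternative chosen after seeing the data. The exception was CHIR_8-16 against WiBi_0-11 cultures with the block: leaving out 1 array gave 0 to 2 calls, and the 2 (Rspo1 and Rspo3) came without CHIR_8-16 replicate 1; without the block it gave 0. Where a group was left with 1 array, that array was assumed to vary like the others. Of 880 alternative values of the differences, 83 changed sign, and 3 of these were of differences of at least 1 on the log2 scale: Rspo3 (-0.05 in CHIR_8-16 against WiBi_0-11 cultures without CHIR_8-16 replicate 2, with the block), Dkk1 (0.03 in WiBi_0-16 against WiBi_0-11 cultures without WiBi_0-11 replicate 2) and Dkk1 (-0.19 in agonist against inhibitor cultures with dim values raised). Median scaling moved the median of all genes in CHIR_8-16 against CHIR_11-16 cultures to -0.12, against 0.03. Under median scaling the highest culture array was the same for 7 of 10 genes, under the deposited table for 9 of 10, and the highest tissue for 10 of 10 under both. Signal over background limits Dkk1 and Frzb.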
